A study of Mus musculus with 4 samples.

Results

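The interleukin-1 (IL-1) family and inflammasome genes were 10 genes chosen by name, namely the ligands Il1a, Il1b, Il18 and Il33, the receptor antagonist Il1rn, the receptor chains Il1r1, Il1rap and Il1rl1, the inflammasome sensor Nlrp3 and the protease Casp1. All 10 were found among the 55421 genes listed, and 8 of them were among the 17144 genes with enough counts for a test. The cells came from the prefrontal cortex (PFC) of newborn C57BL/6 mice (postnatal day 0, wild type), which was freed of meninges and blood vessels, dissociated and cultured for 10 days. Fibroblast growth factor 2 (FGF2) was added at 5 ng/mL to 1 group and left out of the other, and the total RNA of 2 libraries per group was sequenced. The comparison asks how FGF2 in the culture medium relates to the RNA levels of these genes. The libraries are numbered B1 and B2 in their titles (replicates 1 and 2 here) and are not stated to come from separate cultures. The methods of the study describe the replicates of all but certain human samples as technical, which read literally includes these, so every p-value below may measure technical spread only.

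IL-1α, encoded by Il1a, and IL-1β, encoded by Il1b, bind the receptor IL-1R1 (Il1r1), which signals only after it has recruited the accessory protein IL-1RAP (Il1rap), through the adaptor MyD88 and kinases of the IRAK family to NF-κB. IL-1β and IL-18 are made as inactive precursors, and caspase-1 (Casp1) cleaves them once a sensor such as NLRP3 has assembled an inflammasome with the adaptor ASC, encoded by Pycard. In the brain, microglia are the best known source of IL-1β, astrocytes respond to IL-1, and both astrocytes and oligodendrocytes are known to make IL-33.

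Counts on genes totalled between 9166432 and 10799886 per library, and levels are given in CPM (gene counts after TMM scaling, brought to the same total in each library). A count of 0 leaves room for 3 counts, equal to 0.277 to 0.331 CPM (counting error only), and 3 or fewer counts are treated as the floor. Markers of neurons and astrocytes, the cell types expected of such cultures, were abundant in every library, with summed levels of 3139 to 4448 CPM over 10 neuron markers and 7742 to 12753 CPM over 10 astrocyte markers.

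The stretches just upstream of 4 genes whose RNA differed between the groups are shown here because Casp1 and Casp4 are neighbours on chromosome 9, Il1a and Il1b lie close together on chromosome 2, and the members of each pair were all higher with FGF2 but differ in their matches to short motifs. Each run is the 250 bases before the RefSeq start site in GRCm38.p6, written 5′ to 3′ on the strand of the gene, and capitals mark matches to the motifs named after the runs.
Casp1, chr9:5298267-5298516, plus strand: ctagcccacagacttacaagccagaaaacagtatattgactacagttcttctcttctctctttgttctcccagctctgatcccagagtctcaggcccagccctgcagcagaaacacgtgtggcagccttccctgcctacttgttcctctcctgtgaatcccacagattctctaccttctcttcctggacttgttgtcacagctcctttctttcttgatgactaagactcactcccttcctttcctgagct
Casp4, chr9:5308599-5308848, plus strand: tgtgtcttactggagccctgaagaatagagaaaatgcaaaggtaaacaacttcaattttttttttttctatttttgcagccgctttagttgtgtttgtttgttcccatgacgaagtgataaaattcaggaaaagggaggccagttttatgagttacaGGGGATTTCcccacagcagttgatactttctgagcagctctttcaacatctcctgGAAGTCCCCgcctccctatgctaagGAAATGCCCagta
Il1a, chr2:129309973-129310222, minus strand: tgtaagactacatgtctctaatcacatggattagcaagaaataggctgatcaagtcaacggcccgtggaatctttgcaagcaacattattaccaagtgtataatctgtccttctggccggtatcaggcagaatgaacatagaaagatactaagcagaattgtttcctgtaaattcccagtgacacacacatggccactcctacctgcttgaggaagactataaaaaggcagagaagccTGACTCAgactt
Il1b, chr2:129371140-129371389, minus strand: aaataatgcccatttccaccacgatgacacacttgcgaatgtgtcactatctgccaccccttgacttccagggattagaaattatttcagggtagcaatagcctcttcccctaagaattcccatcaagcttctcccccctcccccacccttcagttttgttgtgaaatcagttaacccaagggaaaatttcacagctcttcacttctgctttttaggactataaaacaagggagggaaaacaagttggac
The motifs searched on both strands were GGGNNNTTC (NF-κB-type), TGANTCA (AP-1-type) and TTCNNNGAA (GAS-type), which do not contain one another and were chosen with these sequences known. They occur in 11.8%, 6.75% and 7.02% of all 32851 upstream windows of 250 bases. The Casp4 window held 3 NF-κB-type matches, at positions -93 to -85, -38 to -30 and -13 to -5 from the start site, of which the last 2 are on the minus strand. The Il1a window held 1 AP-1-type match, at -12 to -6, and the windows of Casp1 and Il1b held none of the motifs. Of the windows of the other members, the one before the Il1rn start at 24336860 held an AP-1-type match and that before its start at 24345371 an NF-κB-type match. The window before the Il1r1 start at 40266586 also held an NF-κB-type match, and none was found for Il1rap, Il18, Il33, Il1rl1 or Nlrp3. A match describes letters in these windows and does not show that a factor binds there.

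Of the 8 tested members, 6 were higher with FGF2 (Il1a, Il1b, Il1r1, Il1rap, Nlrp3 and Casp1) and 0 were lower at an adjusted p-value under 0.05 (edgeR quasi-likelihood test, Benjamini-Hochberg adjustment over 17144 genes), where 20.7% of all tested genes were higher and 19.9% were lower. Neither of the remaining members, Il18 and Il33, had an unadjusted p under 0.05, and DESeq2 called 0 members lower as well. Il1a, Il1b and Nlrp3 passed the expression filter only through the libraries with FGF2, so a difference in them was a condition of their being tested, and the share of tested members that differed is not read against the background. Il1rn and Il1rl1 had too few counts for the test. Because whole cultures were sequenced, a change in the share of cells of a type and a change in RNA per cell cannot be told apart.

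**Figure D1:**
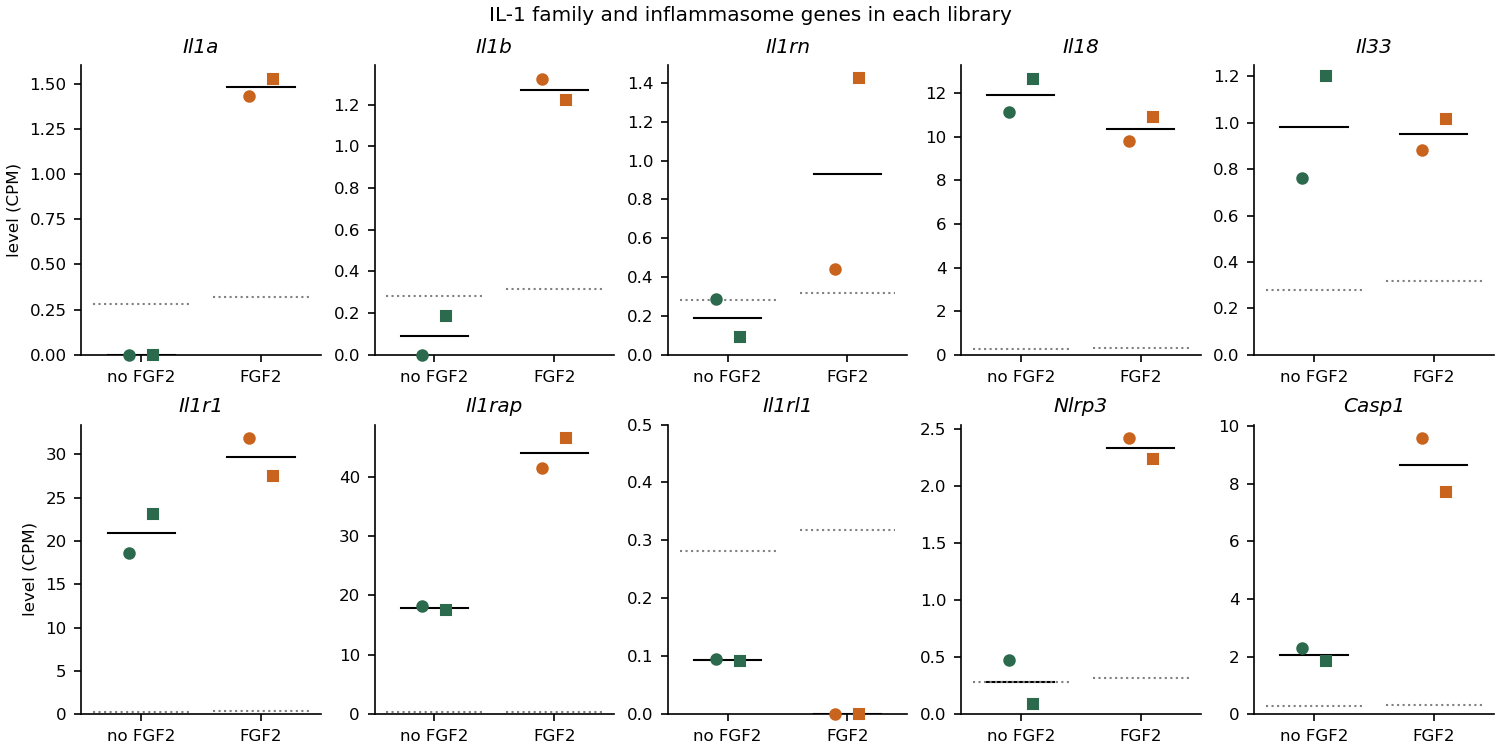
Level of each of the 10 genes in the 4 libraries (vertical axes in CPM, each panel with its own scale from 0). Circles are replicate 1, squares replicate 2, green no FGF2, orange FGF2, black bars the mean of 2 libraries, and dotted lines the level of 3 counts; Il1rap, Casp1 and Nlrp3 lay higher in both libraries with FGF2, whereas the libraries overlapped for Il33.

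Il1a (chromosome 2, 129299610 to 129309972, minus strand), which encodes IL-1α, a cytokine active already as a precursor, had 13 and 15 counts with FGF2, against 0 and 0 in its absence. The levels with FGF2 were 1.43 and 1.53 CPM (mean 1.48 ± 0.0654, SD, n = 2). Both libraries with FGF2 were thus above both libraries without it, all of whose values were 0. Set against 3 counts per library, Il1a was at least 5.26-fold higher with FGF2 (edgeR adjusted p = 1.4e-06). The long RNA Gm14023 overlaps exons of Il1a on the opposite strand, with 225 bases in common. It was at 5 and 10 counts in the FGF2 libraries and 7 and 4 in the others. The counts of both genes could be affected in the shared bases if the counting ignored strand.

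Il1b (chromosome 2, 129364570 to 129371139, minus strand), which encodes the IL-1β precursor, had 12 and 12 counts with FGF2, against 0 and 2 in its absence, or 1.32 and 1.22 CPM against 0 and 0.185 CPM. The libraries of the groups did not overlap, although those without FGF2 were at the floor. The ratio of the levels was 13.5 (95% exact interval 3.36 to 118, counting error only; edgeR adjusted p = 3.9e-04). The adjusted p was 0.068 when replicate 1 without FGF2, which held 0 counts, was left out. Il1b was not tested when replicate 1 or replicate 2 with FGF2 was left out. The opposite-strand gene Il1bos had 0 counts in every library.

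Il1rn (chromosome 2, 24336853 to 24351494, plus strand), which encodes the receptor antagonist that competes with IL-1α and IL-1β, had 4 and 14 counts with FGF2, against 3 and 1 in its absence. These are 0.441 and 1.42 CPM against 0.286 and 0.0924 CPM, and most of the difference came from replicate 2 with FGF2. The ratio of the levels was 5.08 (95% exact interval 1.67 to 20.6, counting error only). Il1rn was outside the main test. Without the expression filter its log2 fold change was 2.26 (edgeR adjusted p = 0.068). DESeq2 gave 2.31 (unadjusted p = 0.095) and no adjusted p. With replicate 1 with FGF2 left out Il1rn passed the filter, at a log2 fold change of 2.84. It also passed without replicate 1 or 2 of the no FGF2 group, at 3.18 and 1.68.

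Il18 (chromosome 9, 50554827 to 50581840, plus strand), which encodes the IL-18 precursor, had 89 and 107 counts with FGF2, against 117 and 137 in its absence. Its levels of 9.81 and 10.9 CPM with FGF2 were just below the 11.1 and 12.7 CPM without FGF2. The log2 fold change was -0.20 with a 95% interval from -0.55 to 0.15 (edgeR adjusted p = 0.40), which leaves room for a fall of moderate size. Unlike IL-1β, IL-18 is made constitutively in many tissues.

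Il33 (chromosome 19, 29925114 to 29960718, plus strand), which encodes a nuclear alarmin, had 8 and 10 counts with FGF2, against 8 and 13 in its absence. The libraries of the groups overlapped, at 0.882 and 1.02 CPM against 0.761 and 1.20 CPM. Its log2 fold change was -0.05 with a 95% interval from -1.23 to 1.13 (edgeR adjusted p = 0.96), so a change of up to that size in either direction was not detectable at this depth. Il1rl1, the gene of the IL-33 receptor ST2 (chromosome 1, 40429570 to 40465415, plus strand), had 0 and 0 counts with FGF2, against 1 and 1 in its absence, all at or under the floor, and no fold is given.

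Il1r1 (chromosome 1, 40225080 to 40317257, plus strand), the signalling receptor chain of IL-1, had 31.8 and 27.5 CPM with FGF2 and 18.7 and 23.1 CPM without FGF2. The means were 29.7 ± 3.11 and 20.9 ± 3.14 CPM (SD, n = 2 each), and the libraries of the groups did not overlap. The log2 fold change was 0.50 ± 0.12 (SE; edgeR adjusted p = 1.9e-04). It was 0.35 (edgeR adjusted p = 0.063) when replicate 1 without FGF2, the lower of the pair, was left out.

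Il1rap (chromosome 16, 26581704 to 26730117, plus strand), whose product is shared by the receptors of IL-1, IL-33 and IL-36, had 376 and 457 counts with FGF2, against 192 and 190 in its absence. This corresponded to 41.4 and 46.5 CPM with FGF2 (mean 44.0 ± 3.56, SD, n = 2) and 18.3 and 17.5 CPM without FGF2 (mean 17.9 ± 0.512, SD, n = 2). The gap between the groups was far wider than the spread within either, with a log2 fold change of 1.30 ± 0.12 (SE; edgeR adjusted p = 1.1e-27), or 2.46-fold. The opposite-strand gene Gm20319 had 0 counts in every library. Within a library, the ratio of Il1rap to Il1r1 in counts per kilobase of exon was 0.729 and 0.948 with FGF2 and 0.549 and 0.426 without FGF2, so the 2 receptor chains were closer to equal RNA levels with FGF2.

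Nlrp3 (chromosome 11, 59541568 to 59566956, plus strand), the sensor for which the NLRP3 inflammasome is named, had 22 and 22 counts with FGF2, against 5 and 1 in its absence. Its levels were 2.42 and 2.24 CPM against 0.476 and 0.0924 CPM, with no overlap between the groups. The log2 fold change was 2.99 ± 0.64 (SE; edgeR adjusted p = 1.9e-05). It moved to 4.48 without replicate 1 of the no FGF2 group and to 2.26 without replicate 2, since 5 or 1 counts then stood for the group.

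Casp1 (chromosome 9, 5298517 to 5307265, plus strand), the protease of the inflammasome, had 87 and 76 counts with FGF2, against 24 and 20 in its absence. Its levels were 9.59 and 7.73 CPM with FGF2 (mean 8.66 ± 1.32, SD, n = 2) and 2.28 and 1.85 CPM without FGF2 (mean 2.07 ± 0.309, SD, n = 2). The lowest library with FGF2 was well above the highest one without it, and the log2 fold change was 2.06 ± 0.29 (SE; edgeR adjusted p = 1.1e-11), or 4.17-fold. No annotated gene overlaps its exons.

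**Figure D2:**
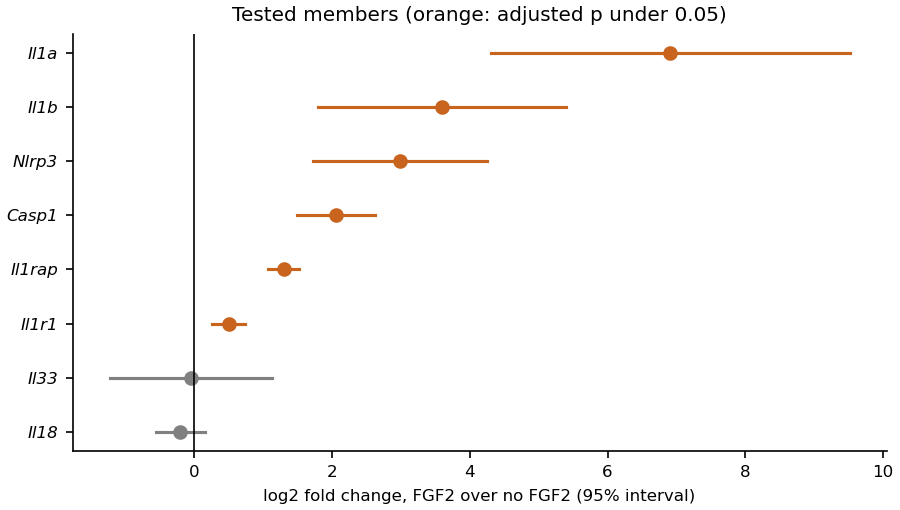
Log2 fold change of the 8 tested genes (horizontal axis, FGF2 over no FGF2) with its 95% interval as a bar. Orange genes had an edgeR adjusted p under 0.05 and grey genes did not; the value of Il1a, which had 0 counts without FGF2, depends on the prior count of the fit and is no measure of size.

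Per kilobase of exon, Il18 had the highest level of the 10 genes in both groups, at 10.0 CPM per kilobase with FGF2 and 11.5 without FGF2. With FGF2 it was followed by Casp1 at 5.78, Il1r1 at 4.66 and Il1rap at 3.87 CPM per kilobase. Of these, Casp1 and Il1r1 differed by no more than their SDs allow, as did Il1r1 and Il1rap. Without FGF2 the order after Il18 was Il1r1 at 3.28, Il1rap at 1.58 and Casp1 at 1.38 CPM per kilobase. Il1rap and Casp1 also differed there by no more than their SDs allow. The ligands Il1a and Il1b were at 0.749 and 0.667 CPM per kilobase with FGF2, above Nlrp3 at 0.574 and Il33 at 0.329. Without FGF2, Il33 at 0.340 CPM per kilobase was above Nlrp3, Il1b, Il1rn, Il1rl1 and Il1a, which all lay between 0 and 0.0700. In that group the libraries of Nlrp3 and Il1b, and those of Il1b and Il1rn, overlapped.

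The wider pathway was described with 5 lists holding 81 annotated genes, of which 57 were tested. There, 39 genes were higher and 5 lower with FGF2, and the median log2 fold change was 1.18 against -0.00082 over all tested genes. Several list genes, Cxcl2 and Casp4 among them, passed the expression filter only through the libraries with FGF2, so neither these counts nor the median are read against all genes. With at least 10 counts required in every library, 27 list genes were higher and 5 lower. Among the further ligands and antagonists, 4 of 6 genes were at 0 counts in every library. Il1f9, named after its values were seen, had 6 and 5 counts with FGF2, against 0 and 0 in its absence. It was outside the main test. Il18bp, which encodes the soluble inhibitor of IL-18, was the only tested gene of that list. It had 229 and 242 counts with FGF2, against 307 and 344 in its absence. The log2 fold change was -0.29, with an adjusted p of 0.033 from edgeR and 0.26 from DESeq2, and with any 1 library left out the edgeR value lay between 0.051 and 0.25. In counts per kilobase, Il18bp stood to Il18 as 0.877 and 0.771 with FGF2 and as 0.894 and 0.856 without FGF2.

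Among the 7 further receptor genes, 2 were tested. Il1rapl1, a synaptic relative of IL-1RAP, had 203 and 238 counts with FGF2, against 200 and 193 in its absence (log2 fold change 0.34, edgeR adjusted p = 0.029, and 0.27 with DESeq2). The edgeR value was 0.18 without replicate 2 with FGF2, and 0.075 and 0.20 without replicates 1 and 2 of the no FGF2 group. Its relative Il1rapl2, named after its values were seen, had 21 and 32 counts with FGF2, against 49 and 55 in its absence (log2 fold change -0.80, edgeR adjusted p = 0.030, and 0.26 with DESeq2). The edgeR value was 0.20 without replicate 1 with FGF2, and 0.084 and 0.17 without replicates 1 and 2 of the no FGF2 group. The decoy receptor gene Il1r2 had 6 and 5 counts with FGF2, against 6 and 0 in its absence. For the IL-18 receptor chains, Il18r1 had at most 1 count in a library and Il18rap had 1 count in each. The inhibitory receptor gene Sigirr was at 0 in every library.

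Among the 19 genes of IL-1 receptor signalling, 11 were higher and 1 was lower with FGF2, with a median log2 fold change of 0.25. Over all tested genes, 20.7% were higher and 19.9% lower. The count of higher genes includes Irak3, which passed the expression filter only through the libraries with FGF2. Myd88, the adaptor, had 132 and 141 counts with FGF2, against 50 and 61 in its absence (log2 fold change 1.47 ± 0.20, SE; edgeR adjusted p = 4.6e-12). Irak4, the kinase that acts next, had 60 and 81 counts against 45 and 36 (log2 fold change 0.97, edgeR adjusted p = 8.2e-04, and 0.068 with DESeq2). Irak2 had 196 and 304 counts against 101 and 100 (log2 fold change 1.48), and repeats within its transcript are shared with many other genes, the longest being 645 bases in Gm7229. Transcripts of Myd88 share 224 bases with those of Acaa1a, and transcripts of Irak4 share 170 bases with those of Twf1.

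Further along the pathway, Traf6, the ubiquitin ligase downstream of the IRAK kinases, had 531 and 604 counts with FGF2, against 485 and 497 in its absence (log2 fold change 0.38, edgeR adjusted p = 5.8e-05). Map3k8, a kinase upstream of ERK, had 122 and 116 counts against 26 and 47 (log2 fold change 1.88). Irak3, an inhibitor of the pathway that was named after its values were seen, had 49 and 38 counts against 2 and 5 (log2 fold change 3.77 ± 0.53, SE; edgeR adjusted p = 8.9e-12). The gene that was lower was Tollip, also named afterwards, with 1004 and 1057 counts against 1375 and 1316 (log2 fold change -0.21, edgeR adjusted p = 0.0024, 0.068 with DESeq2 and 0.14 without replicate 1 of the no FGF2 group). Receptor, adaptor, kinase and inhibitor genes therefore all included genes that were higher with FGF2, by very different amounts.

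Among the 22 further inflammasome genes, 12 were tested, 4 were higher and 2 were lower with FGF2, with a median log2 fold change of 0.19. Over all tested genes, 20.7% were higher and 19.9% lower. The count of higher genes includes Casp4, which passed the expression filter only through the libraries with FGF2, so it is not read against that share. With at least 10 counts required in every library, 3 were higher and 2 lower. Casp4, which encodes the caspase that senses intracellular lipopolysaccharide, had 137 and 169 counts with FGF2, against 3 and 2 in its absence. These are 15.1 and 17.2 CPM against 0.286 and 0.185 CPM, a ratio of 69.0 (95% exact interval 29.3 to 214, counting error only; edgeR adjusted p = 3.6e-58). Casp4 lies 1562 bases after Casp1 on the plus strand of chromosome 9, from 5308828 to 5336783, and their transcripts shared no run of 100 bases or more at 95% identity. The ratio of Casp1 to Casp4 in counts per kilobase was 1.57 and 1.11 with FGF2. Without FGF2 Casp4 was at the floor, and no ratio is given.

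The adaptor gene Pycard had 11 and 4 counts with FGF2, against 11 and 7 in its absence (log2 fold change -0.08, edgeR adjusted p = 0.94), and the libraries of the groups overlapped. Gsdmd, whose product forms the pores of pyroptosis, had at most 2 counts in a library. Nek7, a kinase that binds NLRP3, had 494 and 539 counts with FGF2, against 413 and 432 in its absence (log2 fold change 0.46, edgeR adjusted p = 2.8e-06). Txnip, whose product can also bind NLRP3, had 2925 and 3083 counts against 1503 and 1498 (log2 fold change 1.18), and 443 bases of its transcript are shared with Gm15441. Gsdme, another gasdermin gene, had 94 and 62 counts against 141 and 115 (log2 fold change -0.54, edgeR adjusted p = 0.015). Its adjusted p was 0.26 with DESeq2, 0.48 without replicate 2 with FGF2 and 0.30 without replicate 1 of the no FGF2 group. Casp8 and Panx1, named after their values were seen, were the remaining genes called. Casp8 had 39 and 53 counts with FGF2, against 16 and 29 in its absence (edgeR adjusted p = 0.0015, 0.084 with DESeq2 and 0.10 without replicate 1 of the no FGF2 group), and Panx1 had 509 and 632 against 788 and 829 (edgeR adjusted p = 1.2e-04).

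**Figure D3:**
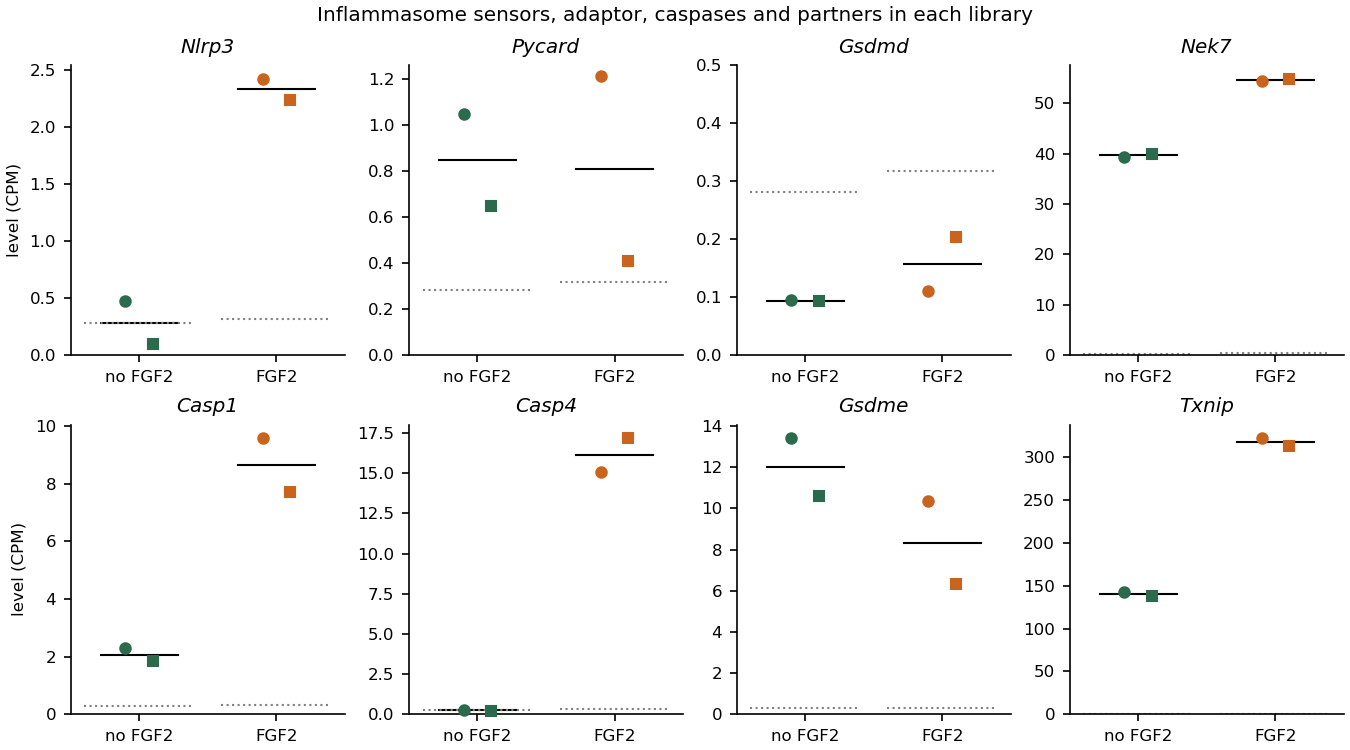
Levels of Nlrp3, Pycard, Gsdmd, Nek7, Casp1, Casp4, Gsdme and Txnip in the 4 libraries (vertical axes in CPM, each panel with its own scale from 0). Symbols, bars and dotted lines are as in the plot of the 10 genes; Casp4 had 15.1 and 17.2 CPM with FGF2, whereas Pycard overlapped between the groups and Gsdmd stayed below the level of 3 counts.

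Among 27 target genes of IL-1 and NF-κB, all 23 that were tested were higher with FGF2, with a median log2 fold change of 4.22. The remaining 4 were not tested. With at least 10 counts required in every library, 13 were higher. Several target genes, Cxcl2, Ccl2, Cxcl1 and Bcl3 among them, passed the expression filter only through the libraries with FGF2. Neither the count nor the median is therefore read against all genes, of which 20.7% of those tested were higher. The chemokine gene Cxcl2 had 139 and 145 counts with FGF2, against 0 and 0 in its absence, at least 53.4-fold higher against 3 counts per library. Its transcript shares 116 bases with that of Cxcl3. Ccl2 had 413 and 465 counts against 5 and 1, Cxcl1 had 475 and 469 against 2 and 6, and Bcl3 had 116 and 90 against 0 and 2. Other ligands and receptors also act through NF-κB, and the list does not single out IL-1.

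**Figure D4:**
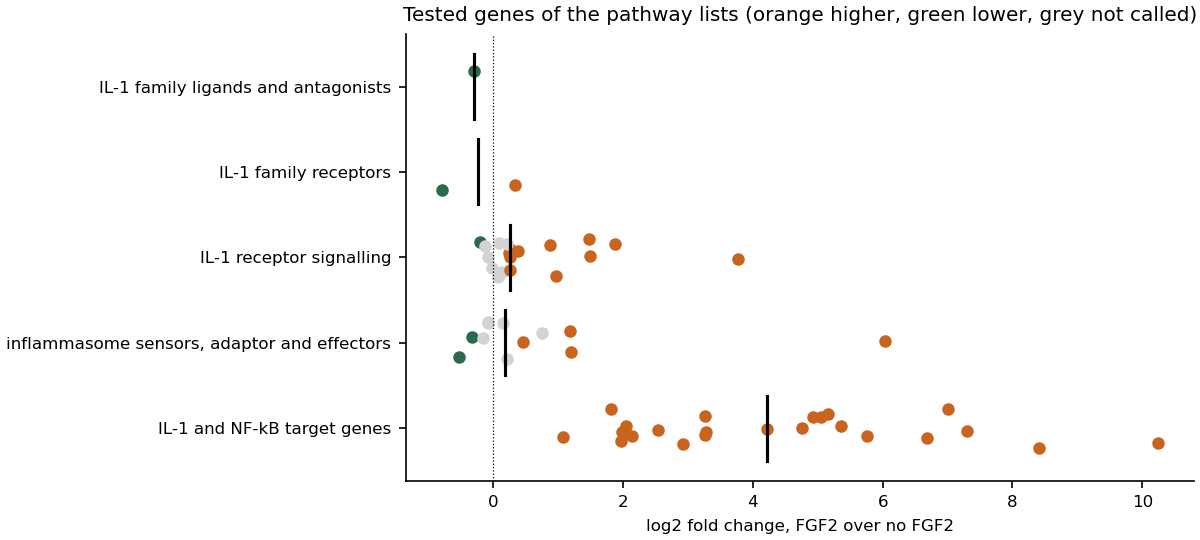
Log2 fold change (horizontal axis, FGF2 over no FGF2) of the 57 tested genes in the 5 pathway lists, 1 point per gene. Orange genes were higher, green genes lower and grey genes not called, and black bars mark each list's median, which was 4.22 for the target genes and 0.19 for the inflammasome genes. Several genes, Cxcl2 and Casp4 among them, passed the expression filter only through the libraries with FGF2, so the medians are not read against all genes.

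Markers of cell types known to express these genes moved with the groups, and their part in the results was not tested. Of 18 microglia markers, 13 were tested, and 4 of these were higher with FGF2 by edgeR, where 20.7% of all tested genes were higher. The 4 include Ptprc, which passed the expression filter only through the libraries with FGF2, so this count is not read against that share. The summed level was 130.8 to 139.7 CPM with FGF2 and 109.5 to 110.1 CPM without FGF2. Most of that sum was Sall1, with 837 to 983 counts per library. The genes that were higher, named like those of the other marker lists after their values were seen, were Csf1r (49 and 52 counts against 21 and 21), Ptprc (21 and 28 against 3 and 10), Cx3cr1 and C1qb, of which DESeq2 called Csf1r and Ptprc. By edgeR, the adjusted p of Ptprc was 0.065 without replicate 1 of the no FGF2 group, that of Cx3cr1 was 0.21 and 0.15 without replicate 2 of the FGF2 and the no FGF2 group, and that of C1qb was 0.068 to 0.20 with any 1 library left out. The defining marker Siglech was at 0 in every library, Aif1 had 3 to 5 counts, Tmem119 0 to 4 and P2ry12 3 to 7.

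Of 10 neutrophil, monocyte and macrophage markers, 5 were tested and all 5 were higher with FGF2, with a summed level of 44.1 to 51.0 CPM with FGF2 and 18.5 to 21.4 without FGF2. They were S100a8 (29 and 40 counts against 0 and 0), S100a9 (48 and 65 against 2 and 0), Ly6c2, Lyz2 and Mrc1, while Ly6g and Cd163 were at 0 in every library. S100a8 and S100a9 passed the expression filter only through the libraries with FGF2. The count is therefore not read against the 20.7% of all tested genes that were higher. Of 9 mast cell and lymphocyte markers, 6 were at 0 in every library, and the only tested one, Kit, was lower with FGF2. These lists hold genes that other brain cells also express.

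Among resident cells, 8 of 10 astrocyte markers were higher and 1 was lower with FGF2, with a summed level of 12628 to 12753 CPM with FGF2 and 7742 to 7793 without FGF2. All 10 tested oligodendrocyte lineage markers of 11 were higher, with 1875 to 1887 CPM against 565 to 575. Of 10 neuron markers, 9 were lower with FGF2, with 3139 to 3200 CPM against 4433 to 4448. Of 7 endothelial markers, 3 were tested, Flt1 being higher and Kdr lower, and the summed level was 7.83 to 9.92 CPM against 4.95 to 8.50. The defining endothelial marker Cldn5 was at 0 in every library. Of 8 meningeal fibroblast and mural markers, 6 were tested, Pdgfrb and Rgs5 being higher and Col1a1 and Col1a2 lower, with 63.0 to 66.3 CPM against 50.3 to 52.1.

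**Figure D5:**
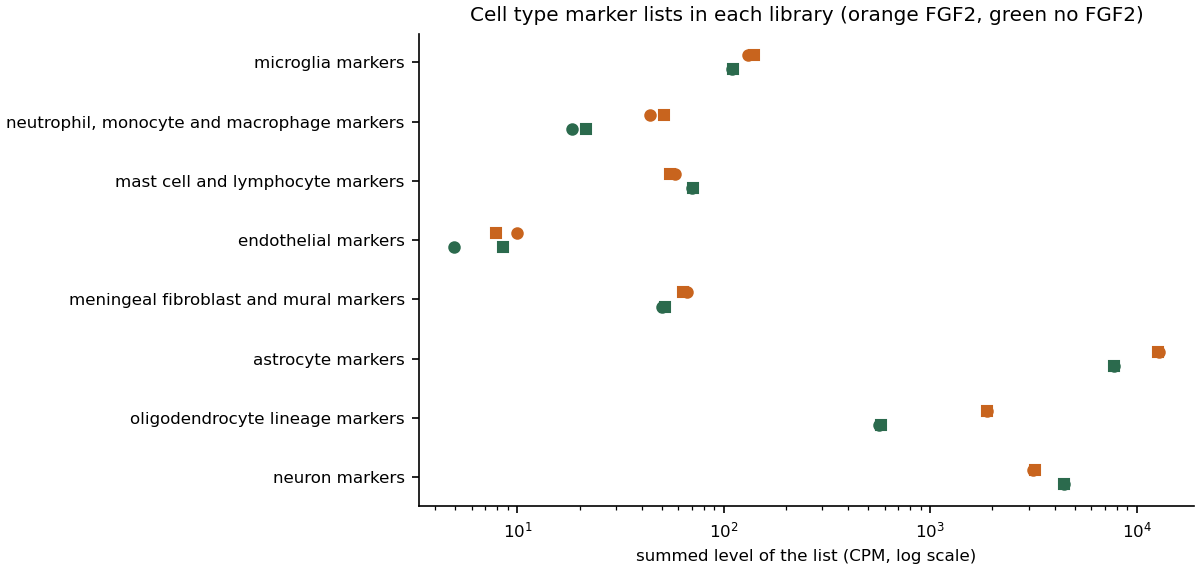
Summed level of each cell type marker list in the 4 libraries (horizontal axis in CPM on a log scale; orange FGF2, green no FGF2, circles replicate 1, squares replicate 2). The oligodendrocyte list lay at 1875 to 1887 CPM with FGF2 and 565 to 575 without FGF2, whereas the endothelial list overlapped between the groups.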

How the data were processed

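Bulk RNA-seq of 4 libraries of cultured mouse PFC cells was analysed, 2 with FGF2 and 2 without FGF2. The authors mapped reads to mm10 with HISAT2, kept alignments with a mapping quality of at least 20 with Samtools and counted them per gene with HTSeq (versions 2.1.0 and 0.11.2 for HISAT2 and HTSeq in the submitters' processing notes). The deposited values are raw counts per gene and library. The annotation release and strand setting are not given in the sources used here. The mapping quality filter removes reads that fit several places, so genes with near-identical copies can be counted too low. Of 55421 listed genes, 55240 were matched to GENCODE M21, which gave names and coordinates, and 5 tallies that name no gene, including the 43.2% to 45.9% of read pairs in no feature, were left out.

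Counts were tested with the quasi-likelihood test of edgeR 4.0.16 (R 4.3.3), with TMM factors (0.992 to 1.01), its filter at a minimum count of 10, and Benjamini-Hochberg adjustment over 17144 genes. Calls used an adjusted p under 0.05. On simulated counts with 200 genes changed 2-fold the fit was tested before use. SEs were derived as the absolute log2 fold change divided by the square root of the F statistic of the test. The 95% intervals were built from these SEs with the t distribution, so both are approximations. Ratios against 1 to 3 counts per library carry exact counting intervals. Alternatives were RLE and total count scaling, no filter, at least 10 counts in every library, DESeq2 1.42.0, a prior count of 2, the replicate number as a block, and each library left out. Replicates differed by more than sampling noise (chi-square per degree of freedom 2.28 with FGF2 and 1.76 without FGF2). Longest transcripts of 54 genes were aligned by BLAST to all others, and 14 shared at least 100 bases at 95% identity with another gene. Upstream sequences are from RefSeq (GRCm38.p6).

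The 10 genes and all lists were chosen with earlier results of these data known. Beside the 10, list genes were named if called, at a mean of at least 5 CPM and among the 4 largest changes of their list, or if they complete a ligand, receptor or protease pair. Of the ligand list, 4 symbols are synonyms that the annotation lacks. Markers were summarised as lists, from which 1 microglia marker was left out and is not reported here.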

Additional observations from a re-analysis of the deposited data

How the results depend on the processing

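With 2 libraries per group the spread rests on few values, and genes with few counts carry wide intervals. For the 10 genes, 50 of 50 results with an adjusted p under the other settings had the direction and the side of the threshold given above, as did 25 of 29 with a library left out. The exceptions were Il1b and Il1r1 without replicate 1 of the no FGF2 group (log2 fold change 2.70 and 0.35), and Il33, which turned to 0.04 without replicate 1 with FGF2 and 0.31 without replicate 2 of the no FGF2 group (range -0.34 to 0.31). Pycard turned to 0.51 without replicate 2 with FGF2 and to 0.30 without replicate 1 of the no FGF2 group (range -1.04 to 0.51). Across these omissions Il1a ranged from 6.87 to 6.99 (it had no value without replicate 2 with FGF2), Il1rap from 1.21 to 1.37 and Casp1 from 1.90 to 2.21. Il1b had no value when replicate 1 or replicate 2 with FGF2 was left out. Il1rn entered the test in some omissions, so the members tested were not the same set in each. For 27 other named genes with a test, 168 of 178 results under settings that kept every library had the same direction and side; the calls lost were those given above for DESeq2, those of Cx3cr1 and C1qb with DESeq2, and Il18bp without the filter (edgeR adjusted p = 0.055). A prior count of 2 gave Il1a a log2 fold change of 3.08 in place of 6.91. That setting leaves the adjusted p of the main fit unchanged by construction, so its results in the tallies above could differ only in direction. At least 10 counts in every library left 3 of the 10 genes called (Il1r1, Il1rap and Casp1) and 13 target genes higher, since fewer genes were tested. DESeq2 called 4 of the 10, gave Il1a and Il1b no adjusted p, and called 4007 genes in all (2068 higher, 1939 lower) against 6949 (3541 and 3408) with edgeR. Of the 4007, 4005 were shared. With DESeq2, 1 pathway gene was lower in place of 5. By list, it called 0 ligands and antagonists lower, 0 receptors higher and 0 lower, 7 signalling genes higher and 0 lower, and 1 inflammasome gene lower. Without the filter, 1 ligand or antagonist (Il1f9) was higher and 0 were lower. With a library left out, 4 to 6 of the 10 genes were called, pathway genes called lower ranged from 1 to 4, ligands and antagonists lower from 0 to 0, receptors higher from 0 to 1 and lower from 0 to 1, signalling genes lower from 0 to 2 and inflammasome genes lower from 1 to 2. The causes were not tested.

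The replicate numbers share only a number (correlation of the deviations of B1 and B2 between groups 0.0046 over 16756 genes). With the replicate block, 6814 genes were called in place of 6949, and 6 of the 10 genes as before.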
